A study of Mus musculus with 6 samples.

Results

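The regions described here are accessible intervals that reach the ends of neighbouring genes together. They come from the deposited list of accessible intervals of Ezh2-null mouse fibroblasts, on build mm10. An interval was taken where it overlapped, by at least 1 bp, the surroundings (500 bp to either side) of ends of 2 or more different protein-coding genes whose bodies do not overlap. Both ends of a gene counted, the start and the 3′ end alike. Of the 21624 intervals on chromosomes 1 to 19, out of 21835 in the list, 1450 met this rule (6.71%), and they are called joining intervals below. Another 7124 intervals (32.9%) reached the end of a single gene and serve as the comparison, 523 reached only genes with overlapping bodies, and 12527 reached no gene end.

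The study used ATAC-seq, which marks open DNA by where a transposase can insert adapters, with 50000 whole cells per transposition. Its 3 groups, with 2 samples each, were Ezh2 -/- cells, Ezh2 -/- cells given Ezh2 back from the retroviral vector pMSCV-Ezh2, and wild-type cells. All groups were the same c-myc-immortalized mouse embryonic fibroblast line, named A or C2, so every value rests on 1 line, immortalised with an oncogene. Ezh2 is the methyltransferase of Polycomb repressive complex 2. The list of the Ezh2 -/- cells alone was analysed here, so nothing below compares genotypes. It gives no value per sample and no read counts, so replicate error and depth are unknown, and no p-value is given. The percentages carry exact (Clopper-Pearson) 95% binomial intervals, which cover counting over intervals or genes and not variation between cultures.

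The cell label was checked against marker genes. An interval stood at a gene end of 13 of 18 fibroblast markers, among them Col1a1, Col1a2, Col3a1, Vim, Prrx1 and Twist1. Thy1, Pdgfra, Dcn, Lum and Fap had none. An interval also stood at 1 of 9 haematopoietic markers (Cd68), 0 of 5 endothelial, 1 of 5 epithelial (Krt8), 2 of 4 neuronal (Rbfox3 and Map2) and 0 of 5 pluripotency markers. Over all coding genes the share with an interval at a gene end was 48.0%. The binomial interval of each marker class contains that share (fibroblast 72.2%, 46.5 to 90.3), so these counts are a weak check of the label.

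Neighbouring genes can face each other in different ways. In a head-to-head pair the starts are adjacent and transcription runs outward from a shared stretch of DNA, often a CpG-rich bidirectional promoter, an arrangement frequent in mammals among genes for DNA repair, mitochondrial and other housekeeping proteins. In a pair running in the same direction the 3′ end of the upstream gene precedes the start of the downstream gene. In a tail-to-tail pair the 3′ ends adjoin. Active promoters are usually depleted of nucleosomes and thus open to transposase, whereas most 3′ ends are not.

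The closest pair was head to head in 531 of the 1450 joining intervals, while its direction was unknown in 407. Of the stretches between the starts of such head-to-head genes, 5 are printed here. They belong to 94 joined pairs with 30 to 250 bp between the starts, with both annotated starts at the gene ends, off chromosomes 8 and 18 and without predicted genes. Shown are the 4 pairs of highest maximum signal and the textbook pair Psmb9/Tap1. The sequences are RefSeq's, build GRCm38.p6, + strand, 5′ to 3′, and span chr10:128821630-128821763, chr17:34031691-34031811, chr5:33657978-33658127, chr11:101551956-101552106 and chr17:34187331-34187555 in the order given. Capitals mark matches, on either strand, to the GC box GGGCGG, the CCAAT box, the Ets motif CCGGAAG, the Nrf1 motif GCGCATGC, the E box motif CACGTG, the cAMP response element TGACGTCA, the TATA box letters TATAAA and the YY1 motif AAGATGGCG.
Ormdl2/Sarnp: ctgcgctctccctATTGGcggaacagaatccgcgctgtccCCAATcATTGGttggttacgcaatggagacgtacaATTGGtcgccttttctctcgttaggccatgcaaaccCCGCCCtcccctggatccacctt
Slc39a7/Rxrb: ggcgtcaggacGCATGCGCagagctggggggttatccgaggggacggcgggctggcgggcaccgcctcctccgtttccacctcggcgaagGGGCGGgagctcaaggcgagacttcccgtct
Tmem129/Tacc3: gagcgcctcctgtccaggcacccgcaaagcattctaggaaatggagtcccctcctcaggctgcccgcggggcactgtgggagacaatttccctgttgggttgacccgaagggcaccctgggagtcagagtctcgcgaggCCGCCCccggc
Brca1/Nbr1: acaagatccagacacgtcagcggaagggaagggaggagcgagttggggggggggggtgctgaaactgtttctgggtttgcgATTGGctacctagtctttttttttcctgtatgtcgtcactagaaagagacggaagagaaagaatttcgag
Psmb9/Tap1: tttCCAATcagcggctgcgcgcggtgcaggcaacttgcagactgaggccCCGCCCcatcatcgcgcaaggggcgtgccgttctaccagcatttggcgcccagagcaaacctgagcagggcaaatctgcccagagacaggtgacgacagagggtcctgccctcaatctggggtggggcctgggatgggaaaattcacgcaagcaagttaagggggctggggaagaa

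Ormdl2 encodes a regulator of sphingolipid synthesis and Sarnp an mRNA export factor. Their 134 bp stretch held 4 CCAAT boxes, 1 of them on the + strand, and 1 GC box, and its interval of 2470 bp had a maximum signal of 94. The 121 bp between Slc39a7, a zinc transporter, and Rxrb, a retinoid X receptor, held a GC box and an Nrf1 match at 71.1% G+C. The interval there was 12250 bp wide with a maximum of 73. Tmem129, an E3 ubiquitin ligase, and Tacc3, a spindle protein, were separated by 150 bp with a single GC box, under an interval with a maximum of 73 as well. Brca1, a breast cancer susceptibility gene of homologous recombination, and Nbr1, an autophagy receptor, were separated by 151 bp with 50.3% G+C and 1 CCAAT match. Psmb9, a subunit of the immunoproteasome, and Tap1, the peptide transporter of antigen presentation, were separated by 225 bp with 1 CCAAT and 1 GC box match. Its interval had a maximum of 33. Over all 94 stretches the median G+C share was 64.7% (quartiles 58.0 and 71.0%), and 40 (42.6%) held a GC box, 30 (31.9%) a CCAAT match and 1 (1.06%) TATAAA.

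For contrast, the same conditions left 12 head-to-head pairs without an interval at either start, and the 2 closest are printed in the same way, with bases at chr11:76243700-76243735 and chr9:50603850-50603900.
Glod4/Mrm3: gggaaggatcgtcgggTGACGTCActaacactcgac
Sdhd/Timm8b: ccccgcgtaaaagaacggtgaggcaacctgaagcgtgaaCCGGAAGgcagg
Here TGACGTCA and CCGGAAG are the matches. Over the 12 stretches the median G+C share was 57.2% (quartiles 50.9 and 61.6%), 3 held a GC box and 6 a CCAAT match.

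Most joining intervals reached exactly 2 genes: 1306 of 1450 did, 125 reached 3, 13 reached 4, 5 reached 5 and 1 reached 6. Each interval was described by its closest pair of genes. The bases between the bodies of that pair had a median of 331.5 (quartiles 97 and 1105.5, range 0 to 13817). In 1060 intervals (73.1%) the pair was spaced by 1000 bp or less, and in 376 (25.9%) by 100 bp or less. These spacings follow in part from the rule, since windows of 500 bp around the facing ends of genes up to 1000 bp apart touch or overlap. At the threshold itself, 35 intervals joined genes with windows of 500 bp but not of 400 bp, with a median maximum signal of 36. Another 44 reached a single gene at 500 bp and would join a second one at 600 bp, with a median maximum of 29.5.

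Head-to-head pairs were the most frequent kind. The direction of both genes was known for the closest pair of 1043 intervals (71.9%). Of these, 531 were head to head (50.9%, interval 47.8 to 54.0), 395 ran in the same direction (37.9%) and 117 were tail to tail (11.2%). Among all 12755 neighbouring pairs with known directions the shares were 22.9%, 55.5% and 21.6%. Among the 1405 of these spaced by 1000 bp or less they were 39.4%, 31.0% and 29.7%. The 1043 closest pairs are of any spacing, however, so the last shares are not a like background for them. Spaced by 1000 bp or less were 487 of the 531 head-to-head, 217 of the 395 same-direction and 68 of the 117 tail-to-tail closest pairs. The head-to-head pairs were also the closest, with a median spacing of 109 bp (quartiles 53 and 274), against 857 bp for pairs in the same direction and 726 bp for tail-to-tail pairs.

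Seen from the genes, 486 of 553 head-to-head pairs spaced by 1000 bp or less were joined by 1 interval (87.9%, interval 84.9 to 90.5). The share was 228 of 435 (52.4%, 47.6 to 57.2) for pairs in the same direction and 78 of 417 (18.7%, 15.1 to 22.8) for tail-to-tail pairs. At these spacings joining is nearly the same as having any interval there. No head-to-head pair had separate intervals or an interval at 1 start only, and the other 67 had none at either start. Of the pairs in the same direction, 195 (44.8%) had no interval at the facing ends and 12 had one at a single end, which in 10 of them was the start of the downstream gene. Of the tail-to-tail pairs, 318 (76.3%) had none. For scale, among genes with no other coding gene end within 5000 bp, an interval stood at 4001 of 9005 starts (44.4%) and at 396 of 8139 3′ ends (4.87%).

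Fewer pairs were joined beyond 1000 bp in each direction class. Head-to-head pairs were joined at 89.9% within 100 bp, 88.0% at 101 to 300 bp and 81.7% at 301 to 1000 bp. They were then joined at 45.3% (24 of 53) at 1001 to 2000 bp, 9.20% at 2001 to 5000 bp and 2.30% at 5001 to 10000 bp. Pairs in the same direction were joined at 39.3% (22 of 56) within 100 bp, 58.5% at 101 to 300 bp, 53.0% at 301 to 1000 bp and 36.0% at 1001 to 2000 bp. The first of these intervals (26.5 to 53.3) overlaps the second (47.9 to 68.6), and the difference between these 2 classes was not tested. Tail-to-tail pairs stood at 21.8%, 22.4%, 16.2% and 13.7% in the same 4 classes. From 2001 bp on, the binomial intervals of the 3 direction classes overlapped one another. Beyond 10000 bp, 1 of 11285 neighbouring pairs was joined.

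**Figure D1:**
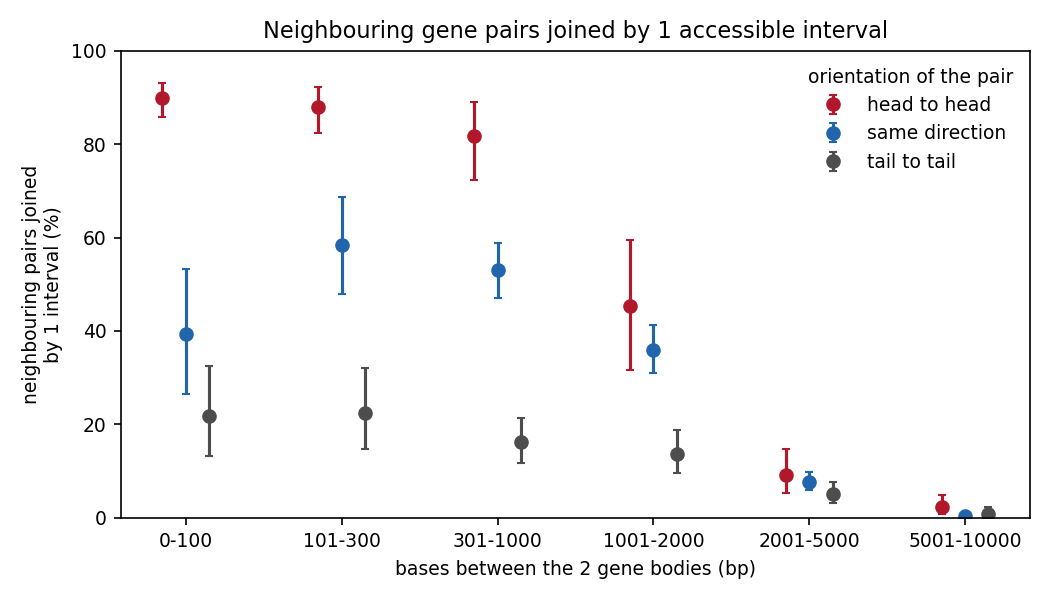
Share of neighbouring gene pairs joined by 1 accessible interval (percent) against the bases between the gene bodies, by direction of the pair; points are shares and bars exact 95% binomial intervals over pairs. Head-to-head pairs stay above 80% up to 1000 bp, where the share of tail-to-tail pairs is 16.2 to 22.4%.

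The point of highest coverage lay in or close to the space between head-to-head genes, and towards the start of the downstream gene in pairs of the same direction. Of 517 head-to-head intervals that contain their own maximum, 486 (94.0%, 91.6 to 95.9) had it between the bodies or within 500 bp of that space, at a median of 78 bp from its centre. In the same direction this held for 272 of 343 (79.3%), at a median of 606.5 bp from the centre. There the maximum was nearer to the downstream start than to the upstream 3′ end in 298 of 343 (86.9%, 82.8 to 90.3), with median distances of 152.5 bp to the start and 1058 bp to the 3′ end. Restricting this to pairs spaced by over 500 bp gave 215 of 242 (88.8%). Of 74 tail-to-tail intervals that contain their maximum, 25 (33.8%, 23.2 to 45.7) had it in or near the space, and the median distance from the centre was 1597 bp. Strictly between the gene bodies, the maximum lay in 231 of the 517 head-to-head intervals (44.7%, 40.3 to 49.1), 146 of the 343 in the same direction (42.6%, 37.3 to 48.0) and 17 of the 74 tail to tail (23.0%, 14.0 to 34.2). In this count, head-to-head pairs and pairs in the same direction were close to each other. Their spaces differ in size, however, with median spacings of 109 and 857 bp over all intervals of these classes. The 2 shares are thus not a like comparison.

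**Figure D2:**
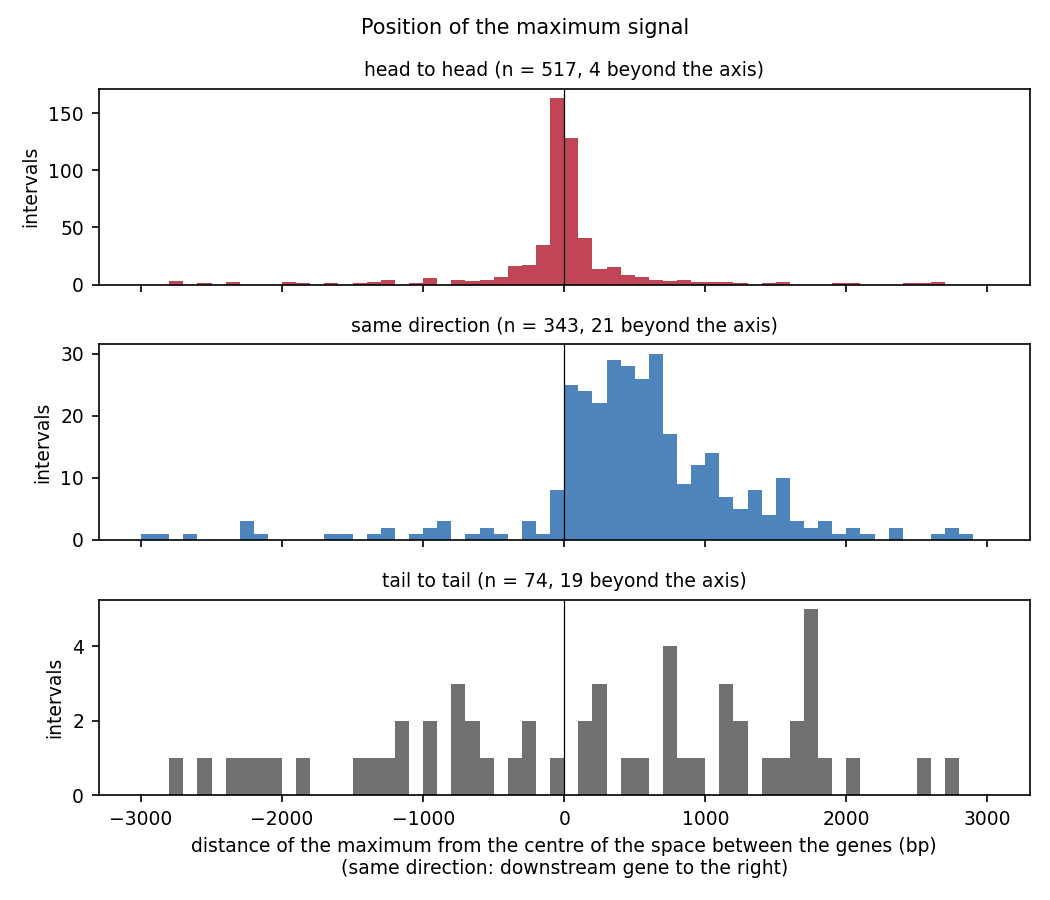
Number of joining intervals by the distance (bp, bins of 100 bp) of the region of maximum signal from the centre of the space between the genes, for the 3 direction classes; pairs in the same direction are turned so that the downstream gene lies to the right. Head-to-head maxima pile up at the centre, those of pairs in the same direction lie to the right of it, and those of the 74 tail-to-tail intervals are scattered.

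Joining intervals were wider and had more signal than those at a single gene. Their width had a median of 3281 bp (quartiles 2374 and 5272), against 2601.5 bp (1963 and 3599) at a single gene. Their total signal, the area under the coverage of the called region in the authors' unit, had a median of 51154 (32039.5 and 89137), against 36082 (24620 and 56780). Width and total are not independent of the rule, since a wider interval reaches more gene ends. Their maximum signal, the height of the coverage, had a median of 42 (31 and 54; range 10 to 97), against 36 (26 and 47; range 10 to 169). At intervals without a gene end the median maximum was 21. Of the joining intervals 913 (63.0%, 60.4 to 65.5) exceeded the single-gene median maximum, as did 48.0% of the single-gene intervals themselves, ties counting as not above.

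The difference was also present at matched width. Within 10 classes of width the median maximum of joining intervals was 34 to 48, and that of single-gene intervals 32 to 43, with joining intervals higher in all 10. Against the single-gene median of the same width class, 860 of 1450 joining intervals (59.3%, 56.7 to 61.9) were higher. Not all single-gene intervals are known to lie at a start, however. The median maximum was 38 at the 4894 single-gene intervals at a start and 23 at the 617 at a 3′ end. It was 34 at the 147 that reached both ends of the gene and 33 at the 1466 of unknown strand. Against those at a start alone and of the same width class, 780 of 1450 joining intervals (53.8%, 51.2 to 56.4) were higher. Joining intervals of every direction, known or not, were kept in that comparison. With joining intervals limited to those at gene starts as well, a setting chosen after the data were seen, 549 of 926 (59.3%, 56.0 to 62.5) were higher.

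**Figure D3:**
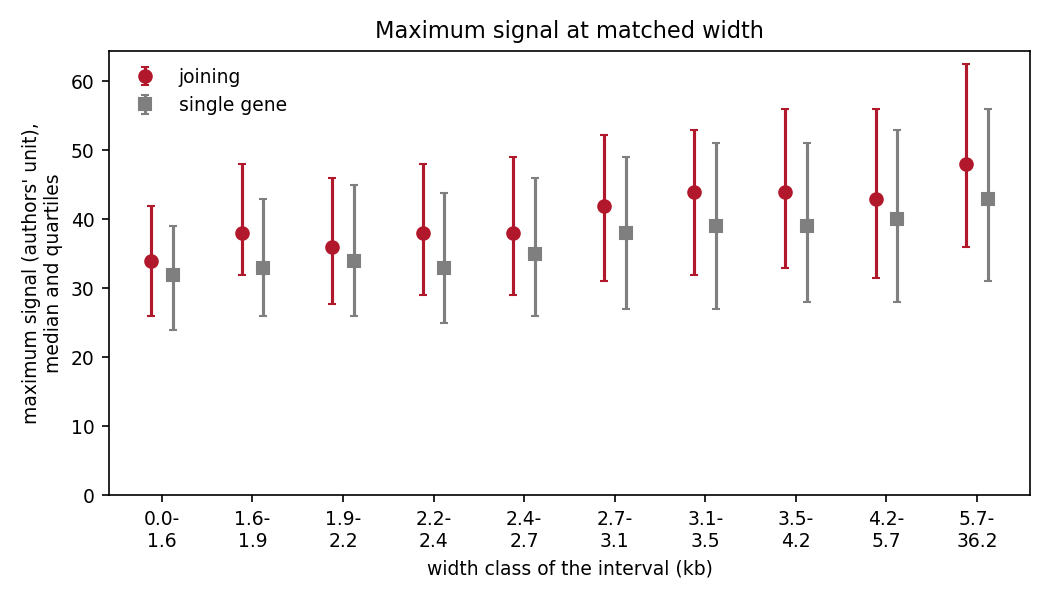
Maximum signal (authors' unit; points, medians; bars, quartiles) of joining and single-gene intervals in 10 classes of interval width (kb). The joining median is the higher one in each class, while the quartile ranges overlap throughout.

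The direction of the genes separated the joining intervals further. Head-to-head intervals had a median maximum of 45 (36 and 55) at a median width of 2895 bp. Of these, 387 of 531 (72.9%, 68.9 to 76.6) exceeded the single-gene median of their width class, and 358 (67.4%, 63.3 to 71.4) that of single-gene starts. Intervals in the same direction had a median of 41 (29 and 54) at 3745 bp, and 187 of 395 (47.3%, 42.3 to 52.4) exceeded the width-matched median at single-gene starts. Tail-to-tail intervals were the widest, at a median of 5371 bp, with the lowest median maximum, 33 (18 and 50). Of them 41 of 117 (35.0%, 26.5 to 44.4) exceeded that median. The binomial interval of the head-to-head share lay above those of both other classes. The maximum is that of the whole called region, however, and can lie in another piece. It lay in the interval itself for 97.36% of head-to-head, 86.84% of same-direction and 63.25% of tail-to-tail intervals. At single genes the share was 95.55% at starts and 60.94% at 3′ ends.

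Among head-to-head intervals the median maximum was 42 with up to 100 bp between the genes, 48 at 101 to 300 bp, 47 at 301 to 1000 bp and 44 at 1001 to 2000 bp. The 6 intervals with 5001 to 10000 bp had a median of 59 and a median width of 8954.5 bp. The quartiles of the closest class (35 and 51) overlap those of the next (37.75 and 55).

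**Figure D4:**
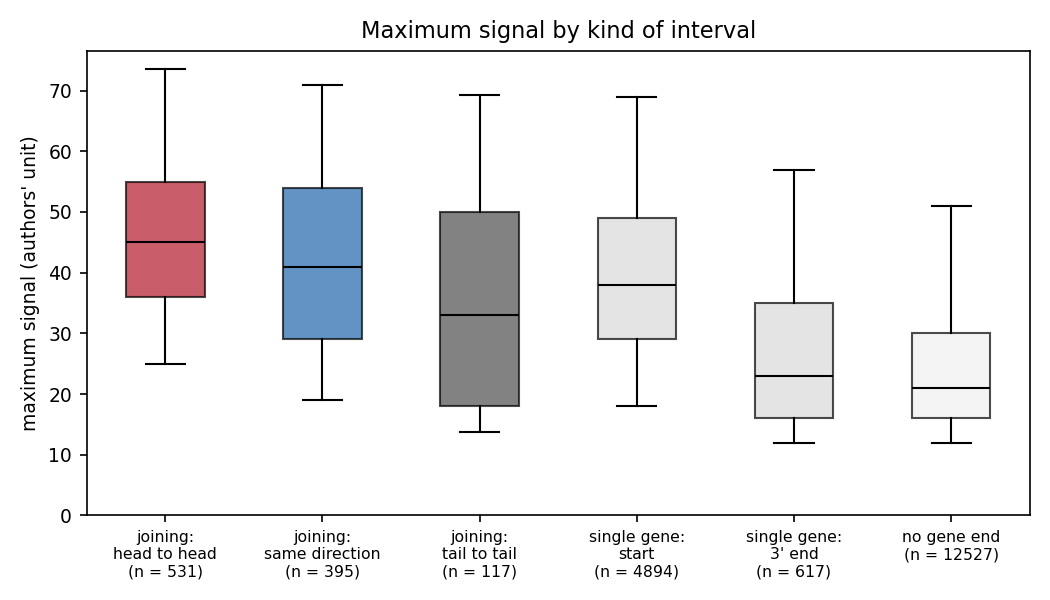
Maximum signal (authors' unit) by kind of interval; boxes give quartiles and median, whiskers the 5th and 95th percentiles, and n the number of intervals. The head-to-head box (36 to 55, median 45) lies highest, and single-gene 3′ ends (median 23) lie close to intervals without a gene end (median 21). The maximum is that of the called region, and only 63.25% of tail-to-tail and 60.94% of single-gene 3′-end intervals contain it.

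The tail-to-tail intervals fell into 2 kinds by what else they reached. Of 117, 43 (36.8%) also reached the start of a gene, with a median width of 6994 bp and a median maximum of 46. The other 74 reached no known start, with 3924.5 bp and 21.5. The difference in width follows in part from the split, since a wider interval reaches more gene ends. The maxima of the 2 kinds were not compared at matched width. The interval itself held the maximum in 32 of the 43 and in 42 of the 74. Among the 74, the highest maximum, 83, was listed for Aspscr1/Cenpx, but it lay outside that interval, in another piece of the called region that joins Lrrc45/Rac3. Rps21, a ribosomal protein gene, and Cables2, whose product relates to cyclin-dependent kinases, adjoin tail to tail with 94 bp between them. They lay under the widest joining interval, 36181 bp at chr2:180254998-180291178, where the called region's total signal was 414785 and its maximum of 79 lay 15169.5 bp from the centre of that space, near the start of Cables2. Adrm1, a ubiquitin receptor of the proteasome, and Lama5, a laminin chain, had an interval of 12179 bp with a maximum of 77. Ubald2/Qrich2 had 75, where the maximum also lies in another piece.

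The highest maxima were found at short and at long intervals alike. Khsrp, an RNA-binding splicing and decay factor, and Slc25a41, a mitochondrial carrier, had 97 (4127 bp). Ubxn6, a cofactor of the ATPase VCP, and Hdgfl2, a histone reader, had 96. Ep400, the ATPase of a chromatin remodelling complex, and Pus1, a pseudouridine synthase, had 94 in an interval of 13127 bp. Ormdl2/Sarnp, printed above, had 94 as well. Next came Swt1, whose yeast relative is an RNA endonuclease, with Trmt1l, related to tRNA methyltransferases, at 91 in only 2626 bp, with 44 bp between the starts and the maximum 12 bp from their centre. Mob3a/Izumo4, Etfdh/4930579G24Rik and Tarbp2/Npff had 90, the last with its maximum outside the interval, Ccdc146/Fam185a 89 and Pa2g4/Erbb3 88. Among pairs in the same direction, Ep400/Pus1 was followed by Catsperz/Kcnk4 with 86 and Kifc5b/Phf1 with 85. Phf1 is an accessory subunit of Polycomb repressive complex 2, and the maximum there lay in another piece.

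The highest totals belonged to wide or multi-piece regions. Madcam1/Tpgs1 had 454788, in a called region of 5 intervals, with the maximum outside the joining one. Cdc6, which loads the replicative helicase, and Rara, a retinoic acid receptor, had 450377, the total of a called region of 2 intervals. The joining one spanned 32692 bp at chr11:98920583-98953274. Arl16/Hgs had 439060 in a called region of 5 intervals, with 4 bp between the genes. Hgs sorts ubiquitinated cargo at endosomes. Fasn, the fatty acid synthase, and Ccdc57 had 380108 under 35030 bp. The rest of the 10 highest were Rps21/Cables2, Samd14/Pdk2 (384079), Fam102a/Dpm2 (368538), Gamt/Dazap1 (364909), Cops6/Mcm7 (364361) and Baiap2/Aatk (356542). Of these, Samd14/Pdk2, Fam102a/Dpm2, Cops6/Mcm7 and Baiap2/Aatk lay in regions of 5 to 7 pieces and did not hold the maximum. Gamt/Dazap1 lay in a region of 3 pieces and Rps21/Cables2 in one of 2, and both held the maximum. The 5 widest were Rps21/Cables2, Fasn/Ccdc57, Cdc6/Rara, Rptor/Chmp6 (27937 bp) and Rfng/Gps1 (25166 bp). Rptor encodes a subunit of the growth-controlling kinase complex mTORC1, and Rptor/Chmp6 was also the farthest-spaced pair, with 13817 bp, followed by Mrc2/Marchf10 with 9651 bp and Kctd2/Trim80 with 9270 bp. In 7 intervals the closest pair had 0 bp between the bodies. The first 3 of these by the sort order of chromosome and position were Smpd2/Ppil6, Snf8/Ube2z and Capza1/St7l, with maxima of 32, 13 and 36.

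A few intervals reached whole gene groups. The 13530 bp interval at chr2:26906152-26919681 covered the Surf locus, a classical cluster of tightly packed housekeeping genes, reaching Med22, Rpl7a, Surf1, Surf2 and Surf4, with a maximum of 59 that lay just inside Rpl7a, 97 bp from the centre of the 42 bp between Med22 and Rpl7a. At chr13:23569542-23578037 an interval of 8496 bp reached the 5 histone genes H2ac8, H2bc8, H2bc7, H2ac7 and H3c4, with a maximum of 60 at the start of H2ac7. Histone genes have near-identical copies, so reads there can be placed uncertainly. Mrpl49, a mitochondrial ribosomal protein, and Fau, a ubiquitin-like ribosomal fusion protein, shared an interval of 13210 bp with Znhit2, Tm7sf2 and Vps51 (maximum 52). Tomm6/Prickle4 shared one with Gm20517, Usp49 and Frs3 (58). The interval reaching most genes, 6 of them, lay over predicted genes at chr4:88787700-88804072 (Gm13277, Gm13278, Gm13275, Gm13279, Gm13285 and Gm13287), with a total of 224480 and a maximum of 64. Copies of one another may lie among them, so this value is uncertain.

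**Figure D5:**
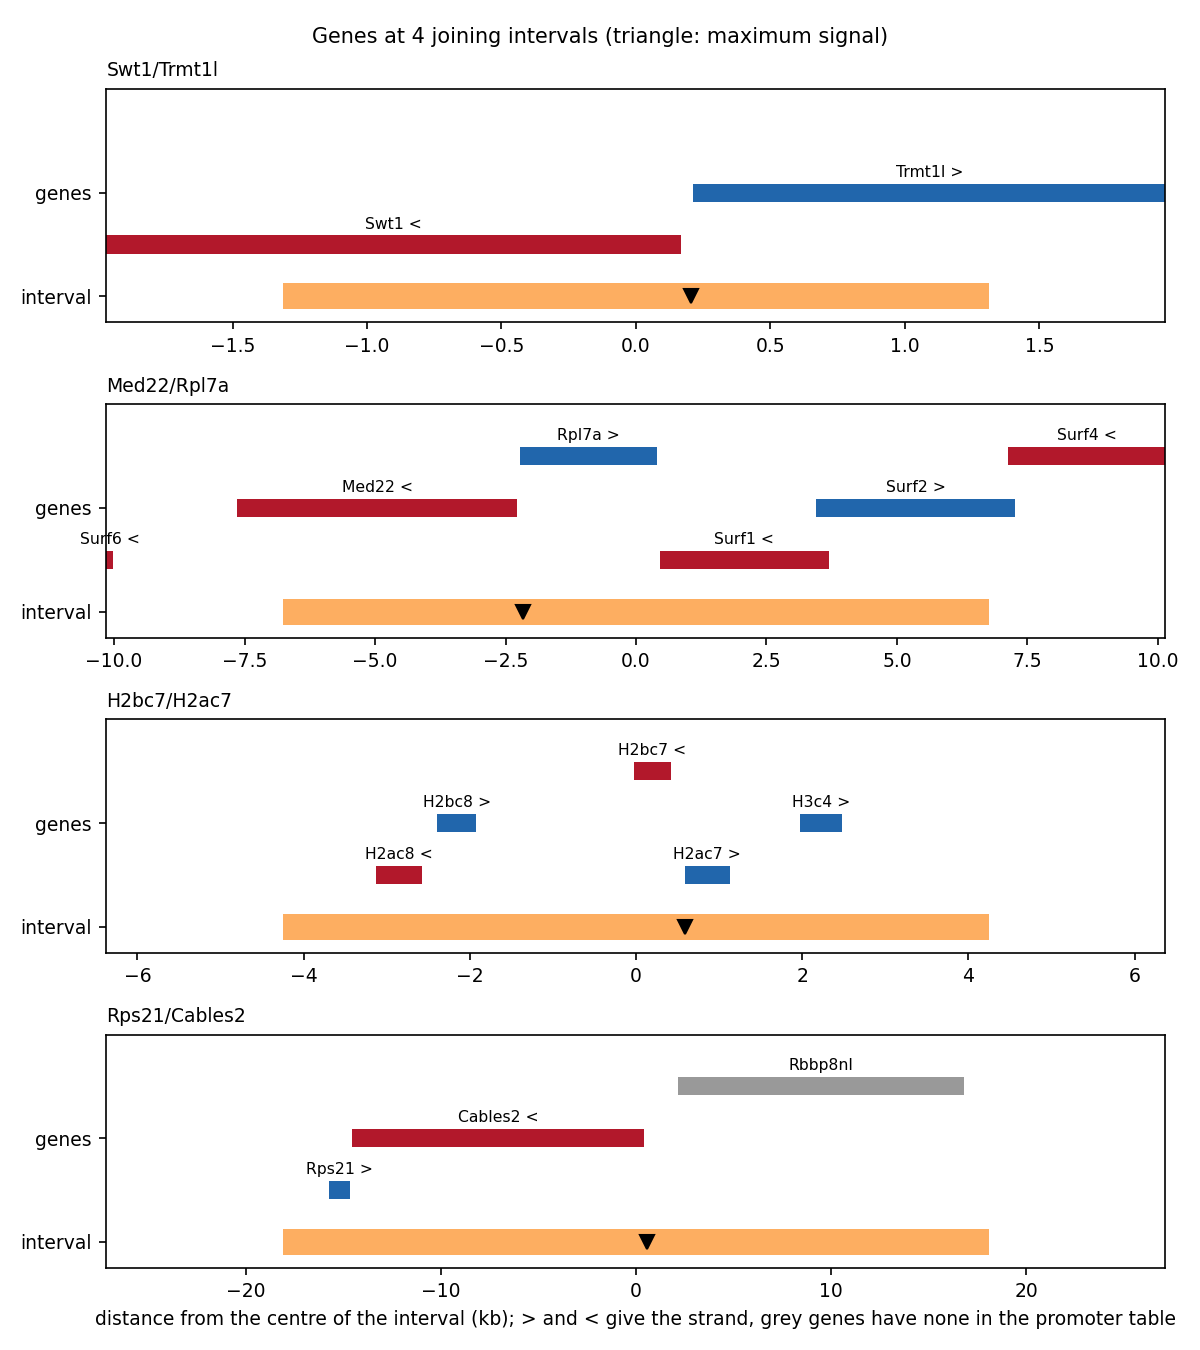
Genes (bars; > and < give the strand, grey where none was given), the accessible interval (orange) and its maximum (triangle) at 4 joining intervals, with distance from the interval's centre in kb. The maximum lies between the starts of Swt1 and Trmt1l, just inside Rpl7a beside its start, at the start of H2ac7 and near the start of Cables2.

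Of 13 head-to-head pairs known from textbooks, 10 were reached at both genes by 1 interval. For scale, 486 of all 553 head-to-head pairs spaced by 1000 bp or less were joined (87.9%). The textbook share is not above that one, so the count sets these pairs apart in no way. In 6 of the 10 textbook pairs so reached the gene bodies were separate, namely Brca1/Nbr1 (maximum 71), Atm/Npat (51), Prkdc/Mcm4 (49), Trp53/Wrap53 (47), Tap1/Psmb9 (33) and Mrps12/Sars2 (30). Atm and Prkdc are kinases of the DNA damage response and Trp53 the tumour suppressor p53. Mrps12 and Sars2 serve mitochondrial translation. Paics/Ppat of purine synthesis (62), Surf1/Surf2 (59) and the chaperonin genes Hspd1/Hspe1 (56) overlap in the gene table and were reached by 1 interval each. The collagen IV pairs Col4a1/Col4a2 and Col4a3/Col4a4, and Ndufs3/Kbtbd4 with 18 bp between the genes, had no interval at either gene.

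The share of genes that lay in a joining interval was higher in most housekeeping lists than over all coding genes. It was 25 of 58 (43.1%, 30.2 to 56.8) for the cytosolic ribosome and 14 of 34 (41.2%, 24.7 to 59.3) for respiratory complex I. It was 14 of 41 (34.1%, 20.1 to 50.6) for DNA repair, 12 of 37 (32.4%) for aminoacyl-tRNA synthetases and 14 of 50 (28.0%, 16.2 to 42.5) for the mitochondrial ribosome. DNA replication had 9 of 37 (24.3%, 11.8 to 41.2) and the proteasome 7 of 31 (22.6%, 9.59 to 41.1). Over all 20665 coding genes on these chromosomes it was 2839 (13.7%, 13.3 to 14.2), which lies within the intervals of the last 2 lists. Any interval at a gene end was also more frequent in these lists. It was present at 94.8% of the cytosolic ribosome, 89.2% of the aminoacyl-tRNA synthetases, 85.4% of DNA repair, 83.8% of DNA replication, 82.4% of complex I, 74.2% of the proteasome and 74.0% of the mitochondrial ribosome, against 9927 of all genes (48.0%). A neighbour within 1000 bp was present for 58.8% of the complex I list, 39.0% of DNA repair, 34.0% of the mitochondrial ribosome and 27.6% of the cytosolic ribosome, against 17.2% of all genes. Of genes with such a neighbour, 87.5% in DNA repair, 87.5% in the cytosolic ribosome, 82.4% in the mitochondrial ribosome, 65.0% in complex I and 55.6% in the proteasome were joined, against 59.7% over all genes. The parts of close neighbours and of the higher share with any interval in these values were not tested. Intervals on these shares are wide, with 9 to 20 genes behind each list, and genes of 1 pair count separately.

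Among DNA repair genes, Brca1 (71) had the highest maximum, and the mismatch repair gene Pms2 with Aimp2 had 66 and the checkpoint kinase gene Chek2 with Hscb 61. Atr, Blm and Brca2 were reached singly, that is, by an interval that joins no separate gene. In DNA replication, the sliding clamp gene Pcna with Cds2 had 66, Gins1 with Abhd12 59, Rpa3 with Umad1 58 and Cdc6 with Rara 57, while Cdc45, Cdt1 and Fen1 were reached singly. The maximum at Cdc6 and Rara lay 25811.5 bp from the centre of the space between these 2 genes. The ribosomal protein genes Rps21 (79), Rplp0 with Gcn1 (69), Rpsa with Slc25a38 (67) and Rpl10a with Tead3 (63) led the cytosolic ribosome, with the maximum of Rplp0 in another piece. Rpl13 and Rpl14 were reached singly and Rpl11 not at all. In the mitochondrial ribosome, Mrpl12 with Hgs (71), Mrps18b with Atat1 (67), Mrps34 with Eme2 (55) and Mrps16 with Cfap70 (54) led, of which the first 3 hold their maximum in another piece of the called region, whereas Mrpl1, Mrpl11 and Mrpl14 were reached singly.

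For complex I, which feeds electrons from NADH into the respiratory chain, the highest were Ndufs7 (74), Ndufs8 with Tcirg1 (63), Ndufb10 beside Rps2 (62) and Ndufb5 with Mrpl47 (58), with those of Ndufs7 and Ndufs8 in another piece. Ndufa10, Ndufa12 and Ndufa13 were reached singly. For the proteasome they were Psmb3 with Pcgf2, a Polycomb subunit (81), Psmb1 with Tbp, the TATA-binding protein (50), Psma2 with Mrpl32 (49) and Psmc2 with Dnajc2 (44). Psma1 was reached singly, and Psma3 and Psma4 not at all. For the aminoacyl-tRNA synthetases, which charge tRNAs, high members were Vars2 with Gtf2h4 (56), Ears2 with Ubfd1 at 0 bp (50) and Hars2 with Zmat2 (45, the same as Vars). Cars and Cars2 were reached singly and Aars2 not at all.

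The Hox genes, clustered developmental regulators and classical Polycomb targets, had 13 of 39 (33.3%, 19.1 to 50.2) in joining intervals, against 13.7% of all coding genes. A neighbour within 1000 bp was present for 6 of the 39 (15.4%, against 17.2% of all coding genes), and these 6 were all joined. The other Hox genes in joining intervals had no such neighbour by this count. In all, 20 of 39 were reached (51.3%), close to the 48.0% of all coding genes. Their 6 joining intervals were 2089 to 16841 bp wide, with maxima of 19 to 40. One of 16841 bp at chr15:103004734-103021574 reached Hoxc6, Hoxc5 and Hoxc4, and one of 15455 bp at chr11:96269760-96285214 reached Hoxb9, Hoxb8 and Hoxb7. Both had a maximum of 40, which at Hoxc6, Hoxc5 and Hoxc4 lies in another piece. Next came the interval of 10138 bp at Hoxb6 and Hoxb5 (31) and those of 2977 bp at Hoxb5 and Hoxb3 (31, in another piece), 3326 bp at Hoxa10 and Hoxa11 (19) and 2089 bp at Hoxa5 and Hoxa6 (25). The maxima of these 4 were at or below the lower quartile of all joining intervals, 31. Hoxa13 and Hoxa2 were not reached at all. In contrast 0 of 31 extracellular matrix genes lay in a joining interval (upper bound 11.2%). Of these 19 had an interval at a gene end (61.3%, against 48.0% of all coding genes), among them Col1a1 but not Col11a1 or Col12a1. A neighbour within 1000 bp was present for 0 of them, against 17.2% of all coding genes.

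The promoters of joined genes were close in G+C share to single accessible starts. Only 9841 of the 16457 promoter records start at the gene end by which intervals were placed, which limits all comparisons in this paragraph. The 300 bp RefSeq promoters (250 before to 50 after the start) of 1062 genes in joined head-to-head pairs had a median of 61.7% G+C and 24 CpG, against 62.7% and 23 for 4890 single genes with an interval at the start. Their quartiles (56.3 and 67.3% G+C) overlapped those of single accessible starts (56.3 and 69.0%), while 8449 genes without an interval had medians of 50.3% and 5. The downstream promoters of joined pairs in the same direction had 60.7% and 19 CpG. The motif shares that follow are descriptions with no interval or test. The Ets match CCGGAAG was in 27.8% of joined head-to-head promoters, 20.8% of the 395 downstream promoters of joined pairs in the same direction, 16.9% of single accessible starts and 12.3% of all 16457 promoters. The YY1 match AAGATGGCG was in 6.40%, 3.04%, 2.80% and 1.92% of the same sets. The GC box was in 67.8%, 66.1%, 71.4% and 47.3%, and TATAAA in 4.99%, 6.33%, 6.26% and 13.5%. Partner promoters of a close pair contain each other's bases, so head-to-head promoters are not independent of one another and 1 match can count for both genes. The 134 promoters of head-to-head pairs within 1000 bp that were not joined had 59.0% G+C, 19 CpG, CCGGAAG in 20.1% and TATAAA in 12.7%.

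Some tightly spaced head-to-head pairs had no interval, and they are named here after their values were seen. Among the 67 were Il17rb/Chdh with 4 bp between the genes, Nsa2/Gfm2 with 6 bp, Mrto4/Emc1 with 10 bp, Psma7/Ss18l1 with 18 bp and Alyref/Anapc11 with 21 bp. Nsa2 and Mrto4 act in ribosome assembly, Psma7 is a proteasome subunit and Alyref exports mRNA. The imprinted pair Peg3/Usp29, with 96 bp, was another. Absence from the list means that no interval met the authors' threshold, whose lowest total signal in the list was 15316, and not that the DNA was closed.

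Joining intervals were spread over all 19 chromosomes, from 14 on chromosome 18 to 172 on chromosome 11. They were 3.10% of the intervals on chromosome 18 and 12.2% on chromosome 7. Of neighbouring pairs spaced by 1000 bp or less, 29 of 72 (40.3%) were joined on chromosome 14 and 62 of 79 (78.5%) on chromosome 19. On chromosome 11 beyond 90 Mb, where many of the widest intervals above lie, 58 of 83 such pairs were joined (69.9%, 58.8 to 79.5), against 1030 of 1884 elsewhere (54.7%, 52.4 to 56.9).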

How the data were processed

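ATAC-seq was run on 6 samples, whose 3 groups follow the labels for genotype and treatment. All values come from the deposited Ezh2 knockout list, which has no header. Build mm10, SEACR (a caller of peaks), deepTools and Bowtie2 2.2.9 were used per the submitters' processing notes, which name neither order nor settings. Not given in the sources used here: any transposase shift of reads, the threshold of the caller and the way of combining 2 replicates. Following SEACR's column order, the deposited columns are read as the total signal, a score that sums the coverage over a called region, and the maximum signal, the height of that coverage; the authors' normalization is unknown. Depth is unknown. Some called regions are deposited as several intervals that repeat the same values: 74.55% of joining and 84.53% of single-gene intervals were the only piece of their region, and 88.21% and 91.3% held their own maximum. The 211 intervals on other sequences were left out.

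Genes came from a RefSeq table on GRCm38.p6, which mm10 also represents, with 20665 coding genes on the 19 autosomes. It gives no strand, which was taken from the RefSeq promoter table for 16457 genes, and for none on chromosome 18. Of these, 9841 promoters start at the gene's end in the table. Neighbouring pairs (18559) are adjacent genes with separate bodies, and 12755 had both strands. Motifs were sought on both strands.

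The intervals, gene lists and rules were chosen with earlier results of these data known. The named pairs are the 10 of highest total and of highest maximum signal per called region, the 5 widest, the 5 with the most gene ends, the 3 closest and farthest, the 3 of highest maximum per direction class, every textbook pair, and, for each of the other gene lists, up to 4 members by maximum signal, with the 3 alphabetically first members that lie in no joining interval. Some genes that the rule takes, and their pairs, are not reported here. Of 389 list entries 384 matched. For each of 8 results, 10 alternatives were planned and 1 was added later; another was added for the 4 signal and width shares alone. Python 3.11.15 with numpy 2.4.6, pandas 2.3.3, scipy 1.17.1 and matplotlib 3.10.9 was used. Tests on simulated data gave 0 of 300 lookups that differed from a simple search, and recovered 810 of 810 planted joining intervals.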

Additional observations from a re-analysis of the deposited data

How the results depend on the processing

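Of the 92 values computed under the alternatives, 72 stayed within the main value's binomial interval (for the count, within 1.5 times it), while 20 moved beyond it. The share of close neighbouring pairs joined, 55.31% in the main setting, ranged from 39.86 to 58.36%. The head-to-head share, 50.91% in the main setting, ranged from 45.45 to 58.48%. Neither was a majority under every alternative. The number of joining intervals ranged from 1081 to 1662. With only the intervals above the median total signal, 57.12% exceeded the single-gene median maximum, 56.57% at matched width, 65.29% the median total and 64.92% the median width; 68.96% of closest pairs were spaced by 1000 bp or less and 39.86% of such neighbouring pairs were joined, by construction from fewer intervals. Requiring that the interval contain the gene ends gave 65.87% above the median maximum, 78.85% within 1000 bp, 51.25% of pairs joined and 56.53% head to head. A window of 250 bp gave 75.79% within 1000 bp, and a window of 1000 bp gave 67.63%, with 58.36% of pairs joined and 45.45% head to head. Called regions in 1 piece gave 77.71% within 1000 bp, 43.52% of pairs joined and 58.48% head to head. Intervals holding their own maximum gave 49.21% of pairs joined and 55.35% head to head, and leaving out intervals at overlapping genes gave 52.47% of pairs joined. Beyond the smaller number of intervals, the cause of these moves was not tested. Close pairs were joined most often head to head, then in the same direction, then tail to tail under each of the 9 alternatives for which this was computed (61.3 to 88.63%, 36.78 to 55.63% and 9.832 to 26.62%).

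No paired analysis was possible because the list has no value per replicate, and leaving out a replicate was not possible for the same reason. Chosen after the data were seen were 1 interval per called region, for all 8 results, and intervals at gene starts only, for the 4 signal and width shares. Read depth is unknown, so weakly accessible pairs below the authors' threshold cannot be told apart from closed ones.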
